A study of Sus scrofa with 16 samples.

Results

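Cytosolic ribosomal protein genes were followed in left ventricular tissue of young pigs by a one-channel Affymetrix porcine array. Members were taken by symbol: RPL or RPS followed by a digit, or RPLP0, RPLP1, RPLP2 or RPSA, with the kinase symbols that start RPS6K left out. This gave 64 genes of the 6765 with a symbol of their own, on 96 of the 23935 probe sets tested, and each gene is described by its brightest probe set, the one with the highest mean over all arrays. The animals were Yorkshire x Landrace swine aged 2 to 3 months: 8 exercise-trained pigs and 8 sedentary pigs, each group with 4 females and 4 castrated males, sampled 4 to 5 weeks into the protocol. The array count, 1 per animal, limits the precision of every comparison. Because whole tissue was measured, fewer cells of a type and less RNA per cell cannot be told apart.

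A ribosome joins amino acids in a large subunit and reads the messenger RNA in a small subunit, and each ribosomal protein sits in one of them next to ribosomal RNA. Most of these proteins are needed in equal numbers, and their messenger RNAs begin with a run of pyrimidines, the terminal oligopyrimidine or TOP motif, through which the kinase mTOR controls their translation. A growing heart muscle cell adds ribosomes, and translation of existing messages, ribosomal RNA synthesis and transcript level are separate steps in that process. An array reads only the last of them.

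The symbols fell into classes by role. There were 31 proteins of the large subunit, 3 of its stalk, which recruits elongation factors, and 24 of the small subunit. Another 5 were paralogs, RPL7L1, RPL22L1, RPL26L1, RPL36AL and RPS27L. RPS19BP1 also met the rule by its name, although it codes for a protein that binds RPS19 and is no part of the ribosome. RPL3L, the muscle form of RPL3, was not analysed here.

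The ribosomal protein probe sets were among the brightest on the array. Their median signal was 13.08 log2, where values of any probe set ran from 2.87 to 14.86, and 59 of 64 lay in the top 10% of probe sets by mean signal, above 9.30 log2. RPS29 had the highest signal, 13.87 log2, followed by RPLP0 at 13.81 and RPS20 at 13.77. RPL30 (3.72 log2), RPS15A (4.10) and RPL26 (4.37), at the low end, were below the 40th percentile of mean signal, and for each of these genes that probe set was the single one present. The signal of a probe set depends on its probes as well as its transcript, so this order is one of probe sets and does not rank the transcripts.

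Of 13 cardiac muscle markers 11 were measured, with a median of 13.92 log2 and a mean by animal of 13.21 to 13.59 in exercised and 13.27 to 13.45 in sedentary animals. The 3 measured skeletal muscle markers ran from 3.93 log2 for the myosin gene MYH2 to 14.00 for CKM, a creatine kinase that heart muscle also expresses. The 9 blood and immune markers ran from 4.00 log2 for CD79B to 8.28 for the globin gene HBB, with a median of 5.95. On poly-A controls, bacterial transcripts that are added to the RNA before labelling, the arrays split into 11 with high values (7.22 to 8.20 log2) and 5 with low values (5.81 to 6.31 log2). The labels do not name this split. The high-control arrays were 6 exercised and 5 sedentary animals, and the low-control arrays were exercised 7 and 8 with sedentary 6, 7 and 8. Set against the average of the remaining arrays, each array had an r of 0.988 to 0.994.

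The first question was whether training shifted ribosomal protein transcripts. None of the 64 genes passed in either direction (limma, Benjamini-Hochberg adjustment over all probe sets, adjusted p under 0.05). Over all probe sets 13.4% passed, 6.48% higher and 6.88% lower in exercised animals, and in the top 10% by signal, where most ribosomal protein probe sets lay, 3.17% passed. At an unadjusted p under 0.05 there were 2 of the 64 genes, RPS28 and RPLP1, beside 27% of all probe sets and 12.6% of the top 10%. Members with groups that did not overlap numbered 0, a count given without the share over all probe sets, so it is only a description.

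The differences were small and tightly bounded. Log2 differences, exercised minus sedentary, had a median of -0.0169 over the 64 genes, against 0.0152 in the top 10% and 0.00372 over all probe sets. Of the 64, 57 differed by less than 0.1 log2 in size and 7 by 0.1 or more. The median size was 0.0430 log2, against 0.0788 in the top 10% and 0.118 over all probe sets. The standard error had a median of 0.0546 log2 for the ribosomal protein genes and 0.0923 in the top 10%. That top 10% starts at 9.30 log2, while the median signal of the 64 genes was 13.08, so it is not matched to them in signal. The 95% interval lay within 0.3 log2 on both sides for 59 genes and within 0.5 log2 for all 64. The 5 whose intervals reached past 0.3 log2 were RPS28, RPLP1, RPL22L1, RPL26 and RPL26L1.

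**Figure D1:**
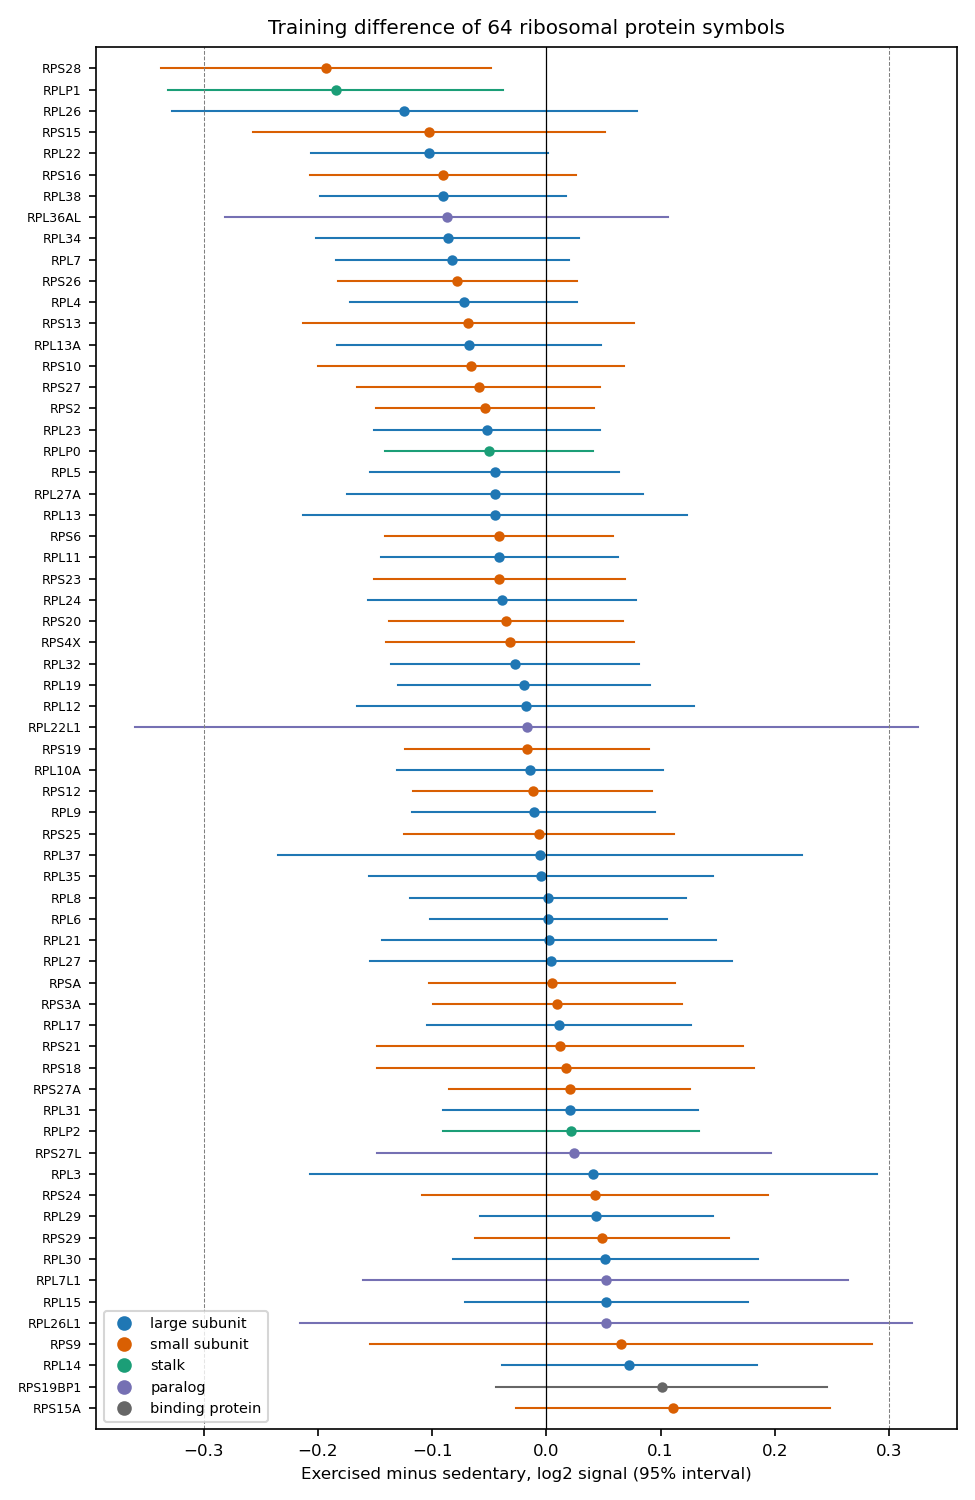
The difference between exercised and sedentary animals in log2 signal (points, x axis) with its 95% interval from limma (lines) is drawn for each of the 64 symbols, ordered from lowest to highest and coloured by class, with dashed lines at 0.3 log2 to either side. RPS28 and RPLP1 are at the low end, at -0.19 and -0.18, and RPS15A at the high end, at 0.11.

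Counted by sign, 39 genes were below 0 and 25 above. Large-subunit proteins split 20 below and 11 above, with a median of -0.0180, and small-subunit proteins 15 and 9, with a median of -0.0240. Of the stalk proteins 2 were below and 1 above, and of the paralogs 2 and 3. The count of 39 rested on 1 animal: without exercised 5 it was 31 below and 33 above, with a median of 0.00285. Without any 1 of the other arrays it was 36 to 47 below.

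RPS28, a small protein of the small subunit, had the lowest difference. Its signal was 13.14 at the lowest, 13.23 at the median and 13.41 at the highest in exercised animals, against 13.31, 13.41 and 13.68 in sedentary animals. All 8 exercised animals were below the sedentary mean, while the highest of them overlapped the lower sedentary values. The means were 13.26 ± 0.0985 in exercised and 13.45 ± 0.135 in sedentary animals (SD, n = 8 each), a difference of -0.19 (SE 0.0679, 95% interval -0.34 to -0.05, limma adjusted p = 0.0743).

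Its level also followed the poly-A split, with a mean of 13.28 on high-control and 13.52 on low-control arrays. Among the high-control arrays RPS28 ran from 13.14 to 13.31 in exercised and from 13.31 to 13.42 in sedentary animals, and 5 of 6 exercised animals were below the lowest sedentary one. Among the low-control arrays both exercised animals, at 13.38 and 13.41, were below all 3 sedentary animals, at 13.53 to 13.68. On those few arrays 33.9% of all probe sets had groups that did not overlap. The difference was -0.15 in the first set and -0.21 in the second. With the array set as a block, RPS28 passed, lower in exercised animals (-0.16, adjusted p = 0.0251). It also passed without sedentary 5 (-0.22, adjusted p = 0.0462). In a fit of the high-control arrays alone RPS28 did not pass (-0.15, adjusted p = 0.135).

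RPS28 had 2 dimmer probe sets. The one at 7.58 log2 differed by -0.19 (SE 0.0774, adjusted p = 0.130), with all 8 exercised animals below the sedentary mean. The one at 4.74 log2 differed by 0.13 (SE 0.0817, adjusted p = 0.338), so the probe sets of this gene did not share a sign.

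RPLP1, an acidic stalk protein, was next lowest. It ran from 12.18 over a median of 12.27 to 12.56 in exercised animals, against 12.25, 12.53 and 12.63 in sedentary animals. The groups overlapped, and 7 of 8 exercised animals were below the sedentary mean. The means were 12.32 ± 0.135 and 12.50 ± 0.127 (exercised and sedentary, SD, n = 8 each), a difference of -0.18 (SE 0.0690, 95% interval -0.33 to -0.04, limma adjusted p = 0.0926). The difference was -0.19 among high-control arrays and -0.09 among low-control arrays. With the array set as a block RPLP1 passed at -0.16 (adjusted p = 0.0445), so that 2 of the 64 genes passed, both lower, beside 18.1% of all probe sets. It also passed without sedentary 5 (-0.22, adjusted p = 0.0385). In a fit of the high-control arrays alone RPLP1 did not pass (-0.17, adjusted p = 0.124). A dimmer RPLP1 probe set, at 6.21 log2, differed by 0.09 (SE 0.115, adjusted p = 0.674).

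RPLP0 and RPLP2, the other stalk proteins, differed less. RPLP0, the anchor of the stalk, was the steadiest of all 64 genes, with an SD of 0.0396 over the 16 arrays. It ran from 13.78 to 13.80 in exercised animals, with a median of 13.79, against 13.78 to 13.91 in sedentary animals, with a median of 13.83. All 8 exercised animals were below the sedentary mean, with a difference of -0.05 (SE 0.0428, adjusted p = 0.505). RPLP2, the partner of RPLP1, ran from 11.66 over 11.73 to 11.91 in exercised animals and from 11.61 over 11.72 to 11.82 in sedentary animals. Its difference was 0.02 (SE 0.0525, adjusted p = 0.845).

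**Figure D2:**
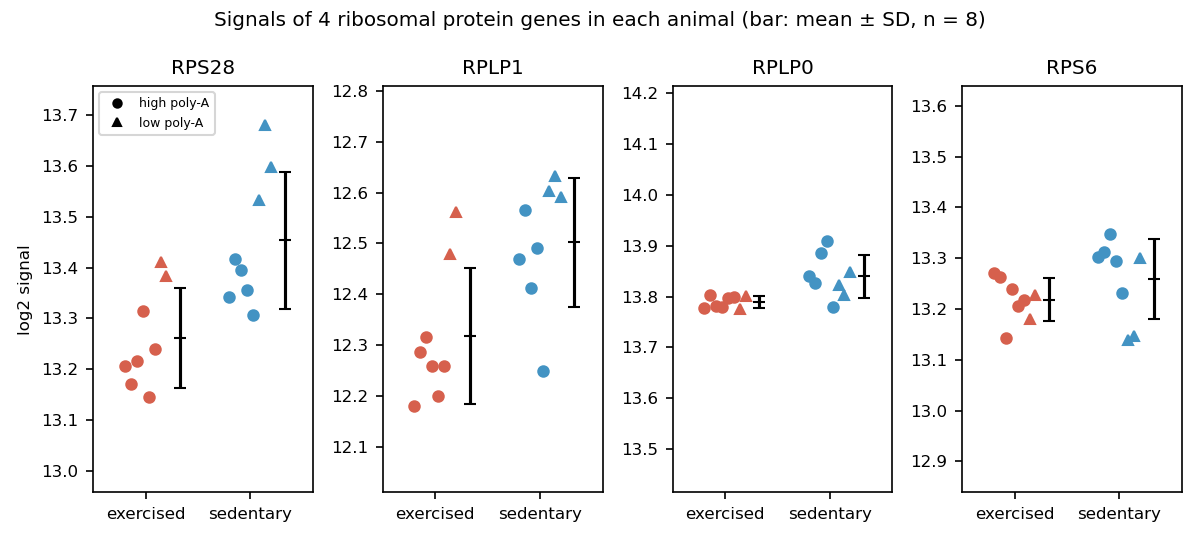
Each point is the log2 signal (y axis) of 1 animal for RPS28, RPLP1, RPLP0 and RPS6, with exercised animals on the left and sedentary animals on the right of each panel. Circles are high-control and triangles low-control arrays, and bars are mean ± SD of 8 animals. For RPS28 and RPLP1 the triangles lie above most circles, and within each shape most exercised points are below the sedentary ones.

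RPS6, the small-subunit protein that S6 kinase phosphorylates downstream of mTOR, ran from 13.14 over 13.22 to 13.27 in exercised animals and from 13.14 over 13.30 to 13.35 in sedentary animals. The groups overlapped widely, with a difference of -0.04 (SE 0.0469, adjusted p = 0.640). RPSA, needed for assembly of the small subunit and also known as a laminin receptor, had a median of 12.90 in exercised and 12.89 in sedentary animals, and a difference of 0.00491 (95% interval -0.10 to 0.11). RPS4X, the X-linked small-subunit protein, differed by -0.03. The bright genes RPS20 and RPS29 differed by -0.04 and 0.05.

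Among other small-subunit proteins, RPS15 (-0.10), RPS16 (-0.09), RPS26 (-0.08), RPS13 (-0.07) and RPS10 (-0.07) were lowest, and RPS15A (0.11) and RPS9 (0.07) were highest. RPS15 ran from 12.45 over 12.82 to 12.90 in exercised animals, against 12.75, 12.89 and 13.06 in sedentary animals, and its difference was -0.05 without exercised 5. The RPS15A value is from a probe set in the low range of the array, at 4.16 ± 0.130 in exercised and 4.05 ± 0.0745 in sedentary animals (SD, n = 8, adjusted p = 0.297).

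On the large subunit outside its stalk, RPL22, an RNA-binding protein, had the largest difference among bright probe sets. Its signal was 13.16, 13.26 and 13.34 at the lowest, median and highest exercised animal, against 13.29, 13.34 and 13.46 in sedentary animals. All 8 exercised animals were below the sedentary mean, with a difference of -0.10 (SE 0.0486, adjusted p = 0.190). RPL26, which lies at the exit of the peptide tunnel, differed by -0.12 on a dim probe set (SE 0.0957, adjusted p = 0.452). RPL3, which reaches towards the catalytic centre, differed by 0.04 (SE 0.117, adjusted p = 0.871) with a wide spread, from 11.37 to 12.03 in exercised and from 11.42 to 12.27 in sedentary animals. RPL14 (0.07) and RPL15 (0.05) were at the upper end of the large subunit. RPL5, which carries the small ribosomal RNA of the large subunit and binds MDM2, differed by -0.05, and RPL19 by -0.02 and RPL35 by -0.00488.

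Within the high-control arrays a single gene had groups that did not overlap, RPL13A, a large-subunit protein that also takes part in translational control after interferon. It ran from 13.37 to 13.52 in the 6 exercised animals and from 13.57 to 13.65 in the 5 sedentary animals there, and was singled out after its values were seen. In that array set 8.59% of all probe sets had groups that did not overlap, against this 1 of 64 genes. On low-control arrays, with 2 exercised and 3 sedentary animals, 21 of the 64 genes and 33.9% of all probe sets did not overlap.

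Paralogs were among the most variable genes of the set. RPL22L1, the partner copy of RPL22, ran from 9.63 over 10.55 to 10.91 in exercised animals and from 10.11 over 10.53 to 10.74 in sedentary animals, with an SD of 0.321 over all arrays. Its difference was -0.02 (SE 0.161), which was -0.17 among high-control and 0.35 among low-control arrays. RPL26L1 differed by 0.05 (SE 0.126), RPL7L1 by 0.05 (SE 0.0999), RPL36AL by -0.09 (SE 0.0912) and RPS27L by 0.02 (SE 0.0811), and none of these passed. RPS19BP1 differed by 0.10 (SE 0.0682, adjusted p = 0.381), and 7 of 8 exercised animals were above the sedentary mean.

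One exercised animal stood apart across the set. In exercised 5, a castrated male, 59 of 64 genes were below their own mean over the 16 arrays and 34 had their lowest value of all animals. The next array by this count was sedentary 6, which held the lowest value of 9 genes. The median deviation of the 64 genes was -0.140 log2 in exercised 5, against -0.0232 to 0.0628 in the other exercised animals and -0.0332 to 0.0485 in sedentary animals. The bright probe sets as a whole did not share this: the median deviation of the top 10% was 0.0078 in exercised 5. Its gap between 3' and 5' actin probe sets, a measure of RNA integrity and labelling, was 2.99 log2, the highest of the 16 arrays. Its GAPDH gap, -0.108, was near the top of the range of -0.275 to -0.102. Only sedentary 6 was higher, at -0.102, and sedentary 8 followed at -0.112. Exercised 1 and 3 followed in actin gap, at 2.93 and 2.81, with median deviations of 0.0033 and 0.0277. The actin gap also followed the poly-A split, at 2.35 to 2.99 on high-control and 1.27 to 1.85 on low-control arrays. Whether the gaps of exercised 5 have a part in its low ribosomal protein signals was not tested.

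**Figure D3:**
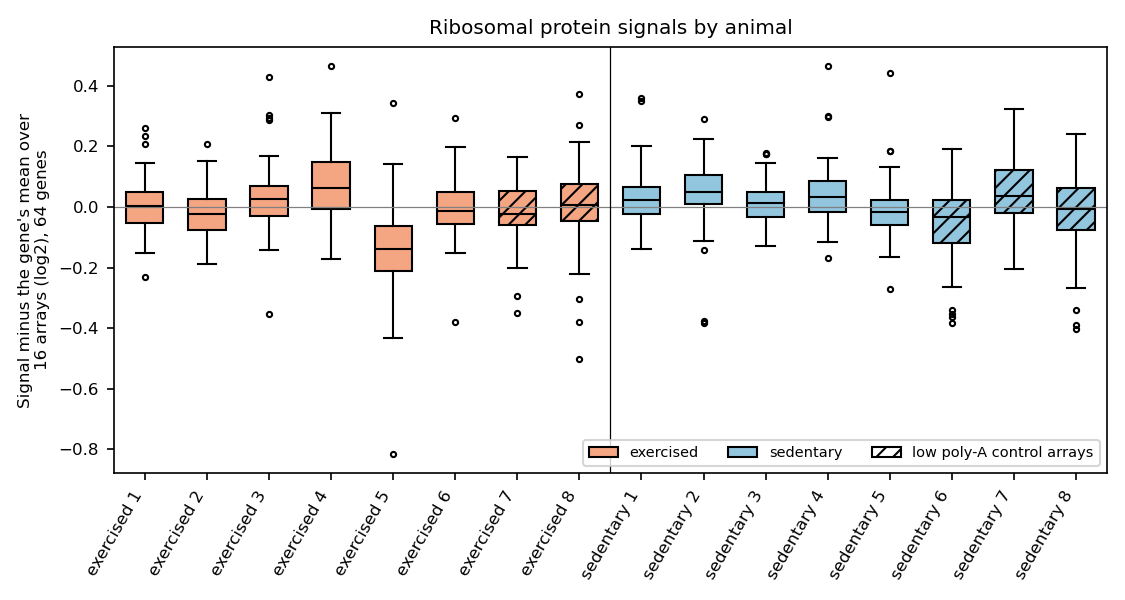
Boxes show, for each animal (x axis), the deviation of the 64 genes from their own mean over 16 arrays in log2 (y axis), with exercised animals on the left, sedentary animals on the right and hatching for low-control arrays. The line is the median, the box the quartiles, and whiskers reach to 1.5 box lengths. The box of exercised 5 is centred on -0.140, below all other boxes.

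Ribosomal protein genes varied little and partly together. The SD over the 16 arrays had a median of 0.0856 log2, against 0.195 in the top 10%, and 57 of the 64 were under that value. The top 10% starts at 9.30 log2, and the median signal of the 64 genes was 13.08. Whether other genes of like signal were as steady was not tested. The 7 genes with an SD over 0.2 were RPL3, RPL7L1, RPL22L1, RPL26L1, RPL36AL, RPL37 and RPS9. After the mean of each training and sex group was subtracted, the median Pearson r between members over the 16 arrays was 0.278 over 2016 pairs, with quartiles of -0.0920 and 0.580. For the 1357 other genes with a brightest probe set in the top 10% it was 0.0135. These arrays share animals, labelling and normalization, and the poly-A split was not subtracted, so r is a description. Without exercised 5 the median r was 0.151 between members and 0.0174 between the other genes. RPS10, RPS21 and RPL10A had the highest median r with the remaining members (0.539, 0.535 and 0.530), and RPL7 and RPL37 the lowest (-0.333 and -0.400).

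The pattern of RPS28 over the arrays, less group means, was closest to that of RIC8A (r = 0.951), EFEMP2 (r = 0.942) and EGFL7 (r = 0.938) among 6764 genes over 16 arrays. None of these is a ribosomal protein gene, and the nearest ribosomal one was RPL27A (r = 0.930). Their training differences were 0.05, -0.29 and 0.23 for RIC8A, EFEMP2 and EGFL7, and none passed. The poly-A split was not subtracted, and RPS28 and RPL27A were both lower on high-control than on low-control arrays (-0.24 and -0.19). The part of that split in these r values was not tested.

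Ribosomal protein genes did not move as a block with the poly-A split. The median of the high-control minus low-control means was 0.0128 log2 over the 64 genes, and 12 shifted by more than 0.2 log2. Higher values on high-control arrays were largest for RPL26L1 (0.48), RPL7L1 (0.36) and RPL36AL (0.32). Lower values on those arrays were largest for RPS28 and RPLP1 (-0.24 each) and RPS13 (-0.22). Among the high-control arrays the fit for training gave a median of -0.0495, with 51 of 64 genes below 0 and 0 passing, where 2456 probe sets passed in all. Exercised 5 is among those arrays.

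The other probe sets of these genes were mostly dim. For 24 genes there were 32 further probe sets, with a median signal of 7.40 log2, and 4 of them at 12 log2 or more. Of the 32, 18 were below 0 and 14 above, 1 passed higher and 1 lower, and 30 did not pass. The 2 that passed are 6.25% of the 32, where 13.4% of all probe sets passed. In 16 of 32 pairs the further probe set had the sign of the brightest one and in 16 the opposite sign, and the median r between the 2 was 0.10 over the 16 arrays. For the 4 further probe sets at 12 log2 or more, r with the brightest was 0.933 for RPL31, 0.908 for RPL27, and 0.595 and 0.128 for the pair of RPS18.

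RPS27A, made as a fusion of ubiquitin and a small-subunit protein, fell on its second probe set, at 7.07, 7.21 and 7.71 (lowest, median, highest) in exercised animals and 7.33, 7.82 and 8.37 in sedentary animals. All 8 exercised animals were below the sedentary mean, and the groups overlapped. The difference was -0.45 (SE 0.135, adjusted p = 0.0364), with -0.61 among high-control and -0.27 among low-control arrays. Among probe sets of like signal to this second one, 4.72% passed. The brightest RPS27A probe set, at 13.66 log2, differed by 0.02 (adjusted p = 0.846) and correlated with the second at r = -0.308 over the 16 arrays. The call for the second probe set was lost in 10 of 16 fits that left out 1 array, those without exercised 1, 3, 4, 5 or 7 or sedentary 1, 2, 3, 4 or 5. Over all alternatives its difference was -0.69 to -0.35.

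RPS13, a small-subunit protein, rose on a second probe set at 3.66 log2, at the low end of the array. It was 3.56, 3.81 and 3.96 in exercised and 3.46, 3.52 and 3.68 in sedentary animals, with all 8 exercised animals above the sedentary mean (0.23, SE 0.0624, adjusted p = 0.0221). Its brightest probe set, at 13.11 log2, differed by -0.07. Among the 10% of probe sets with the lowest signal, which hold this one, 10% passed. Further RPS27 and RPL27 probe sets differed by -0.50 and -0.22 and one of RPL12 by 0.21, without passing (adjusted p = 0.0538, 0.0553 and 0.0506). With the array set as a block these 3 passed (adjusted p = 0.0458, 0.0425 and 0.00403).

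**Figure D4:**
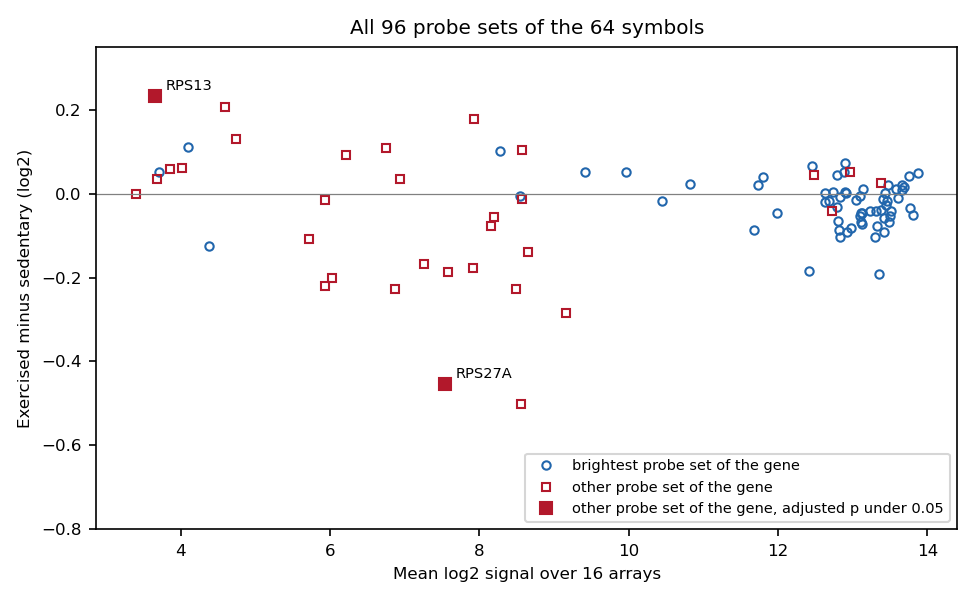
The difference between exercised and sedentary animals in log2 (y axis) is set against mean log2 signal (x axis) for all 96 probe sets, with circles for the brightest probe set of each gene and squares for the others. Filled squares passed an adjusted p of 0.05: RPS13 at 0.23 and RPS27A at -0.45. The circles gather above 12 log2 and close to 0.

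The design also allows the training difference to be read within each sex. In females 0 of 64 genes passed by limma, where 3.72% of all probe sets passed. In castrated males 0 passed, where 3.77% of all probe sets passed. At an unadjusted p under 0.05 there were 3 genes in females and 0 in castrated males. The share over all probe sets at that threshold was not counted within each sex, so these counts have no background beside them. The medians were -0.0118 in females and -0.0341 in castrated males, and 29 genes were below 0 in both sexes and 13 above 0 in both. The difference between the sexes in the training effect was past the threshold for 0 genes and for 0% of all probe sets, and at an unadjusted p under 0.05 for 1 gene beside 2.59% of all probe sets. That gene was RPS19BP1, with 0.25 in females and -0.05 in castrated males, a difference of 0.30 (SE 0.136, adjusted p = 1.00). RPL5 had -0.13 in females and 0.04 in castrated males, and RPLP1 -0.28 in females and -0.08 in castrated males. RPS28 had -0.20 in females and -0.19 in castrated males.

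Averaged over training, females and castrated males were also close. None of the 64 genes passed, where 0.0919% of all probe sets did, and 4 were at an unadjusted p under 0.05 beside 9.26% of all probe sets. The signs leaned to females, with 44 genes higher in females and 20 lower. Those 44 are 68.75% of the 64, against 50.5% of the top 10%. The median difference, female minus castrated male, was 0.0312 log2, against 0.00154 in the top 10%. RPL36AL had the largest difference, at 11.81 in females and 11.55 in castrated males (0.25, SE 0.0912, adjusted p = 0.537). RPL3 and RPS9 were next in size, at 0.23 (SE 0.117) and 0.17 (SE 0.103), with a wider spread. The other 3 at an unadjusted p under 0.05 were RPL35, with 13.19 in females and 13.02 in castrated males (0.16), RPL19, with 12.69 in females and 12.58 in castrated males (0.12), and RPL14, with 12.95 in females and 12.84 in castrated males (0.11). Of the low-control arrays 1 was from a female and 4 from castrated males, and RPL36AL was lower on low-control than on high-control arrays, 11.46 against 11.78 log2. The part of the array split in this lean was not tested.

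Genes around the ribosome were taken from lists chosen with earlier results of these data known. Ubiquitin fusion and ubiquitin genes had 2 of 4 measured, FAU, which carries a small-subunit protein, at -0.04 and the ubiquitin gene UBB at 0.01, and neither passed. Of 19 genes for elongation factors and other TOP messages 15 were measured, 0 passed and the median difference was -0.0158. At an unadjusted p under 0.05 there was 1, beside 27% of all probe sets. EIF3H, a subunit of initiation factor eIF3, was 12.02 ± 0.0965 in exercised and 12.13 ± 0.0260 in sedentary animals (SD, n = 8, difference -0.12, adjusted p = 0.171). TPT1, a classic TOP message, differed by -0.08, and EIF4B, a helicase cofactor, by 0.10.

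Initiation factors had 22 of 28 measured, with 1 higher, 0 lower and 21 not passing, and a median of 0.0401. Over all probe sets 13.4% passed, and 3.8% among those of like signal to EIF2B1, the 1 that passed. EIF2B1, a subunit of the exchange factor that recharges eIF2, rose to 8.92 ± 0.138 in exercised animals, against 8.65 ± 0.118 in sedentary animals (SD, n = 8, difference 0.27, SE 0.0713, adjusted p = 0.0207). Its partner subunits EIF2B3 and EIF2B2 differed by 0.19 and 0.16 without passing (adjusted p = 0.139 and 0.145). EIF2B4, another subunit, differed in the opposite direction, by -0.17 (adjusted p = 0.147), so the measured subunits did not share a sign. EIF3D, a cap-binding subunit of eIF3, differed by -0.25 without passing (adjusted p = 0.0619).

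Ribosome assembly and RNA polymerase I genes had 32 of 41 measured, with 0 passing, 5 at an unadjusted p under 0.05 and a median of -0.00277. Over all probe sets 27% were at an unadjusted p under 0.05. WDR12, which processes the RNA of the large subunit, had the largest difference among the 4 named, 7.15 ± 0.284 in exercised and 6.70 ± 0.331 in sedentary animals (SD, n = 8, difference 0.46, adjusted p = 0.0563). NOB1, an endonuclease that trims the small-subunit RNA, differed by -0.23 (adjusted p = 0.0526). POLR1B, a core subunit of RNA polymerase I, differed by 0.18, and GAR1, which guides RNA modification, by 0.21 (adjusted p = 0.102 and 0.110).

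Genes of mTOR signalling to ribosomes had 13 of 23 measured, with 0 higher, 2 lower and 11 not passing, and a median of -0.0589. These 2 of 13 stand beside 13.4% of all probe sets. TSC1, which restrains mTOR, fell by 0.34 (log2 -0.34, SE 0.0918, adjusted p = 0.0214), to 4.54 ± 0.173 in exercised animals, against 4.88 ± 0.233 in sedentary animals, on a dim probe set. Among probe sets of like signal to that of TSC1, 26.6% passed, and 12.5% among those of like signal to RPS6KA3. RPS6KA3, a kinase of the growth factor pathway, fell by 0.37 (log2 -0.37, SE 0.108, adjusted p = 0.0348), to 6.29 ± 0.160 in exercised animals, against 6.66 ± 0.354 in sedentary animals. The RPS6KA3 call was lost in 11 of 16 fits that left out 1 array, all but those without exercised 2 or 3 or sedentary 4, 6 or 8. RHEB, the small GTPase that switches mTOR on, differed by -0.24 without passing (adjusted p = 0.0757), although all 8 exercised animals were below the sedentary mean for each of these 3 genes.

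Cell type markers were read beside these values. NPPA, the atrial natriuretic peptide gene, was the 1 of 11 cardiac markers that passed, at 8.23 ± 0.542 in exercised and 9.004 ± 0.494 in sedentary animals (SD, n = 8, difference -0.78, adjusted p = 0.0457). This 1 of 11 stands beside 13.4% of all probe sets, and 3.8% of those of like signal to NPPA. Of 9 measured blood and immune markers 3 passed, all higher in exercised animals: ITGAM (0.54), CD79B (0.26) and CD3G (0.56), each on a probe set with a mean signal below the 40th percentile of 5.57 log2. Among probe sets of like signal, 21.9% to 26.6% of all probe sets passed. CD4 (-0.37, adjusted p = 0.0618) and CD14 (-0.29, adjusted p = 0.141) differed the other way without passing, with 7 of 8 exercised animals below the sedentary mean for each. The mean of the 9 by animal ran from 5.68 to 6.20 log2 in exercised and from 5.34 to 6.01 log2 in sedentary animals. No marker passed among 5 endothelial, 4 fibroblast, 3 smooth muscle and 3 adipocyte genes. The part of these cells in the ribosomal protein values was not tested.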

How the data were processed

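The authors deposited 1 log2 signal for each probe set and array, with 1 array for each of 16 animals. The labels' protocols give biotin labelling for an Affymetrix array. Summarisation and normalization are not given in the sources used here. Array medians were all 6.236, so no scaling was added.

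Of 24123 probe sets, 188 controls and reporters were left out. Symbols came from the platform annotation; all 64 matched RefSeq (Sscrofa11.1) by Entrez identifier, with 0 changed. A further 8 probe sets that pair a ribosomal protein symbol with another symbol were not used.

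A mean for each of 4 training and sex groups was fitted with limma 3.58.1 in R 4.3.3 to all 23935 probe sets (12 residual and 3.50 prior degrees of freedom), with two-sided tests and Benjamini-Hochberg adjustment over all of them. Every adjusted p is from limma. The array sets were split at the largest gap in the mean of 42 poly-A control probe sets. Fits were checked on simulated data.

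Members, lists and the rule for named genes were chosen with earlier results of these data known. The rule named members past the threshold, the 6 largest differences per direction, the 3 brightest and 3 dimmest, the 3 smallest p values of both sex contrasts, and a set of stalk proteins and paralogs; for other lists, up to 4 genes by p. Other genes named were chosen after their values were seen. Labels do not say that the animals were littermates. Same-numbered animals of the 2 groups correlated at -0.014 to 0.438 in their deviations, not all above 0.1, so numbers were not taken as pairs. Alternatives were normalization, filters, variance settings, blocks, choice of probe set and leaving out each array.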

Additional observations from a re-analysis of the deposited data

Results flagged for a closer look

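Each value here was the lowest or highest of the 8 animals in its group by a gap past Dixon's 95% limit, taken as a share of the group's range. Chance gives about 1 such value in 20 groups. Of the 128 groups formed by 64 genes and 2 training groups, 16 (12.5%) had such a value, with 8 of them in exercised 5 and 4 in sedentary 6.

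In exercised 5, RPL3 was 11.37 against 11.74 to 12.03 log2 in the other exercised animals, RPL15 was 12.66 against 12.89 to 13.07, and RPS15 was 12.45 against 12.72 to 12.90. RPS9 was 12.05 in this animal against 12.44 to 12.77 in the other exercised animals, and RPS19BP1 was 8.10 against 8.30 to 8.43. The median deviation of the 64 genes in exercised 5, -0.140 log2, was set apart by the same measure.

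In sedentary 6, RPL15 was 12.72 against 12.83 to 12.92 in the other sedentary animals, and RPS27L was 10.62 against 10.80 to 10.91. RPLP2 was 11.91 in exercised 4 against 11.66 to 11.76 in the other exercised animals. RPL30 was 3.91 in sedentary 8 against 3.57 to 3.71 in the other sedentary animals, on a dim probe set.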

How the results depend on the processing

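No ribosomal protein gene passed for sex or for the training by sex difference under any alternative run. For training, 0 genes passed higher except with the dimmest probe set of each gene, which gave 1 (RPS13), and 1 lower (RPS27A). Lower calls were otherwise of RPS28 and RPLP1: 2 with the array set as a block, 2 at an adjusted p under 0.1, and 1 (RPS28) with a trended and robust variance. With the replicate number as a block (replicate block) 2 passed, RPS28 at -0.19 (adjusted p = 0.0498) and RPLP1 at -0.18 (adjusted p = 0.0456). Leaving out 1 array gave 0 higher and 0 to 2 lower, the 2 (RPS28 and RPLP1) without sedentary 5. With the array set as a block and exercised 5 left out, chosen after seeing the data, 1 passed (RPS28, -0.16). Over all alternatives the adjusted p of RPS28 ran from 0.0251 to 0.494 and that of RPLP1 from 0.0385 to 0.781. Probe sets called in all numbered 3197, 2513 to 3108 without 1 array, 631 and 77 with only those above the 40th or 60th percentile tested, and 579 with the mean of a gene's probe sets; the last 3 test fewer features. Of the calls on second probe sets and listed genes, those of RPS13, EIF2B1 and TSC1 held in all 16 fits without 1 array, and those of RPS27A and RPS6KA3 in 6 and 5. Other alternatives also ended calls. With only the high-control arrays RPS13 and TSC1 did not pass (adjusted p = 0.124 and 0.0810), and with only probe sets above the 40th or 60th percentile tested EIF2B1 did not (adjusted p up to 0.112), nor RPS27A (up to 0.137). RPS6KA3 did not pass above the 40th percentile or with no sex term. The replicate block ended the RPS27A call (adjusted p = 0.0504). On their dimmest probe sets RPS28 and RPLP1 differed by 0.13 and 0.09. The causes were not tested. RPL26, RPL30 and RPS15A have no value above those percentiles.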

Other observations

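The array also carries a control probe set for porcine 18S ribosomal RNA, the RNA of the small subunit, which entered no comparison. It read 6.49 at the lowest, 6.98 at the median and 8.01 log2 at the highest in exercised animals, and 6.77, 7.49 and 8.75 log2 in sedentary animals. The groups overlapped, and no test was run. The 18S probe set ran from 7.05 to 8.75 log2 on low-control arrays and from 6.49 to 7.97 log2 on high-control arrays. Of the 5 low-control arrays 3 were sedentary, and the part of the array split in these values was not tested.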
